A study of Mus musculus with 2 samples.

Results

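Imprinted genes are read mainly from the copy inherited from the mother or from the copy inherited from the father. The 36 genes described here were listed by symbol, matched to mouse Ensembl identifiers with the version removed, and grouped by imprinted locus. They are 36 of the 43346 mouse gene rows measured. Total RNA was sequenced from the liver of B6NCrl mouse embryos at embryonic day 14.5, in 1 group of 2 biological replicates with 1 library each and no treatment or genetic change named in the labels. Each library was made from 10 ng of RNA, and the labels call the tissue a single liver and also a pool of both sexes. Which of these holds is not settled, so livers below stands for the samples of the 2 libraries. Mouse genes held 37059776 of 39998450 estimated reads in replicate 1 and 26908926 of 28848861 in replicate 2. With a single group there was nothing to test against, so levels are given for each library and as mean ± SD (n = 2), without p-values. Levels are in TPM, which gives the share of all transcripts in a library taken by each gene after division by transcript length.

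Imprinting is laid down in the germ line as DNA methylation at control regions, and each control region governs a cluster of neighbouring genes. Many clusters hold a long noncoding RNA made from the parental copy on which the protein-coding genes are silent. In the fetus, imprinted genes are known above all as regulators of growth, and the fetal liver is a main source of the growth factor encoded by Igf2. The parental copy named below for each gene is knowledge from mouse genetics, holds for some genes only in certain tissues, and was not measured: the tables do not separate the parental copies.

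The markers of the labelled tissue were present. All 5 hepatoblast markers (summed at 12313 TPM in replicate 1 and 13129 in replicate 2), all 5 erythroid markers (142289 and 136982 TPM), all 5 mesenchymal and stellate markers (115.8 and 124.5 TPM) and all 5 endothelial markers (46.5 and 48.0 TPM) reached 1 TPM in both livers. None of 5 trophoblast markers did, with a sum of 0.14 TPM in replicate 1 and 0 in replicate 2, and Prl3d1, Prl3b1, Tpbpa and Psg17 were at 0 in both. None of 5 neuronal markers did either, with sums of 1.06 and 1.18 TPM and Neurod1 at 0. In this bulk tissue, fewer cells of a type and less RNA per cell cannot be told apart.

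The start regions of Igf2, Gnas and Grb10 are shown because transcripts of these genes begin at several alternative starts. Each line is a window of 300 bases from RefSeq (GRCm38.p6), from 250 bases before an annotated start to 50 bases from it, 5′ to 3′ on the strand of the gene. Capitals mark CpG dinucleotides, the sites at which imprinting marks are written. Igf2 lies on the minus strand, and its 4 windows run from the distal to the proximal start.
Igf2 window 1, chr7:142666767-142667066: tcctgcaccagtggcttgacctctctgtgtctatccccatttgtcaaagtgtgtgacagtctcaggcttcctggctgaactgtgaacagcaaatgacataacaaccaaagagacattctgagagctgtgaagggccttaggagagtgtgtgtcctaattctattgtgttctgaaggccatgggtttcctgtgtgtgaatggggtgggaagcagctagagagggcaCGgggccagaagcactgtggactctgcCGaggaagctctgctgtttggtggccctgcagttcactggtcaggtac
Igf2 window 2, chr7:142661222-142661521: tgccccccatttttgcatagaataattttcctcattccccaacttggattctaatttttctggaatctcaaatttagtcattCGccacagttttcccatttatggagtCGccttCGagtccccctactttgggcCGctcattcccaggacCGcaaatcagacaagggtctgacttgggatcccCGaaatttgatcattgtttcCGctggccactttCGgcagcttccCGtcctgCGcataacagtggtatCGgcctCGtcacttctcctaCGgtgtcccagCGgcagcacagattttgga
Igf2 window 3, chr7:142658755-142659054: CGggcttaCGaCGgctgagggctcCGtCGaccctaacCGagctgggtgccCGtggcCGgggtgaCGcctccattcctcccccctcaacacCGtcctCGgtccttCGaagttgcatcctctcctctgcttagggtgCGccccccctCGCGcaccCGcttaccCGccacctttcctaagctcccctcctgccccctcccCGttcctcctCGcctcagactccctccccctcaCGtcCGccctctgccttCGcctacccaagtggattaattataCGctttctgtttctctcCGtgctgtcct
Igf2 window 4, chr7:142657447-142657746: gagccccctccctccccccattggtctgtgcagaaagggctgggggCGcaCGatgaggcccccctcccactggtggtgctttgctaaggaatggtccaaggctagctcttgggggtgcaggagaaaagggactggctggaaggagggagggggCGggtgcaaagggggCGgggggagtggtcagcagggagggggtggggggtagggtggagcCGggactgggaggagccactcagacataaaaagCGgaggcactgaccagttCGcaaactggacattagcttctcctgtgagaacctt

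The Igf2 windows hold 2, 14, 24 and 7 CpG dinucleotides, in that order, so the distal start lies in a CpG-poor stretch and the third window in a dense one. Gnas lies on the plus strand. Of its 4 windows 3 are shown, those of the Nesp start, of the exon 1A start and of the start of the transcripts for the stimulatory G protein subunit, and they hold 16, 27 and 40 CpG dinucleotides. The remaining window, with 28, begins 19 bases downstream of the exon 1A window and overlaps it.
Gnas window at the Nesp start, chr2:174284070-174284369: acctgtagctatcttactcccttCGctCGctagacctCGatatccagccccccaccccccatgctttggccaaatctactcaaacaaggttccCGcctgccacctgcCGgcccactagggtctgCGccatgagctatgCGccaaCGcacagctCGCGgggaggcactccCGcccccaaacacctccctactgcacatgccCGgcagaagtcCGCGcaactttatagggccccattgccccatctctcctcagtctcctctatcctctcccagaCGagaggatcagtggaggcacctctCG
Gnas window at the exon 1A start, chr2:174327499-174327798: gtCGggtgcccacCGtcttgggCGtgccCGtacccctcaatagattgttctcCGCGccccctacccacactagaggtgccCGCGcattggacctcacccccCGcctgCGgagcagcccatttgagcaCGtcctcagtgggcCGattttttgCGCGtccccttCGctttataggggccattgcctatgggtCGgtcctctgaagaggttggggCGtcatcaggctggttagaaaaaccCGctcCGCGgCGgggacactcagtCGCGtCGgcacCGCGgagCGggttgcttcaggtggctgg
Gnas window at the stimulatory G protein start, chr2:174329756-174330055: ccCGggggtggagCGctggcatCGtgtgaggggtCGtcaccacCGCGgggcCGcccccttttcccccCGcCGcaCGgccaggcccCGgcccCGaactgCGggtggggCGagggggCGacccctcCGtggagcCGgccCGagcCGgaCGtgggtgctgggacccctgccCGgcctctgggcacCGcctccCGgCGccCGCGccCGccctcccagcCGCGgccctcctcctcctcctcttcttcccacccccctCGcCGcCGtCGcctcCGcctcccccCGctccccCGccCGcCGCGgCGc

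Grb10 lies on the minus strand. Its upstream window holds 45 CpG dinucleotides and its downstream window 9.
Grb10 window 1, chr11:12037371-12037670: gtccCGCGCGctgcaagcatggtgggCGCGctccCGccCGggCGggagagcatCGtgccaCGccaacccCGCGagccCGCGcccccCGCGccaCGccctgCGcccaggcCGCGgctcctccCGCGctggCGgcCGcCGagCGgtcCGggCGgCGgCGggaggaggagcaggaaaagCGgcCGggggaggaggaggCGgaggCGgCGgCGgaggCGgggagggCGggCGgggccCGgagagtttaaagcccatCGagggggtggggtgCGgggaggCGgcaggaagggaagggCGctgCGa
Grb10 window 2, chr11:12027922-12028221: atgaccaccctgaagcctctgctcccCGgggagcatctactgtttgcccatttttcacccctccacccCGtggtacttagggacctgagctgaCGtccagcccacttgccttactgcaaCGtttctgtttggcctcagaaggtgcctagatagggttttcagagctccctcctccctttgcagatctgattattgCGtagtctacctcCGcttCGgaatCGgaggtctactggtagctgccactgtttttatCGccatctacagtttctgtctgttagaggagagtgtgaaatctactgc

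Of the 36 genes, 26 (72.2%) reached 1 TPM in both livers, against 26.2% of all mouse gene rows. Split by class, 21 of the 30 protein-coding members did, against 49.2% of all protein-coding rows. Among the long noncoding members 5 of 6 did, against 4.60% of all long noncoding rows. Of the 15 genes known to be read from the maternal copy 12 were detected, and of the 20 known to be read from the paternal copy 13 were. Gnas, whose products differ in their parental origin, was detected too. The median member stood at 7.33 TPM, with 11.4 TPM for the maternally read and 4.47 TPM for the paternally read genes, against a median of 1.04 TPM over all protein-coding rows and 0 over all mouse gene rows. These lists were chosen by hand and their medians are descriptions.

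The members ranged from 404.1 TPM to no reads. At 100 TPM or more in both livers stood 6 genes: H19, Igf2, Dlk1, Gnas, Commd1 and Mest. Another 9 lay between 10 and 100 TPM in the lower of their libraries, 11 between 1 and 10 TPM, and 10 below 1 TPM. Together the members took 0.226% ± 0.019 of mouse TPM (SD, n = 2). The 5 highest held 71.0% of the summed member TPM in replicate 1 and 72.6% in replicate 2.

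**Figure D1:**
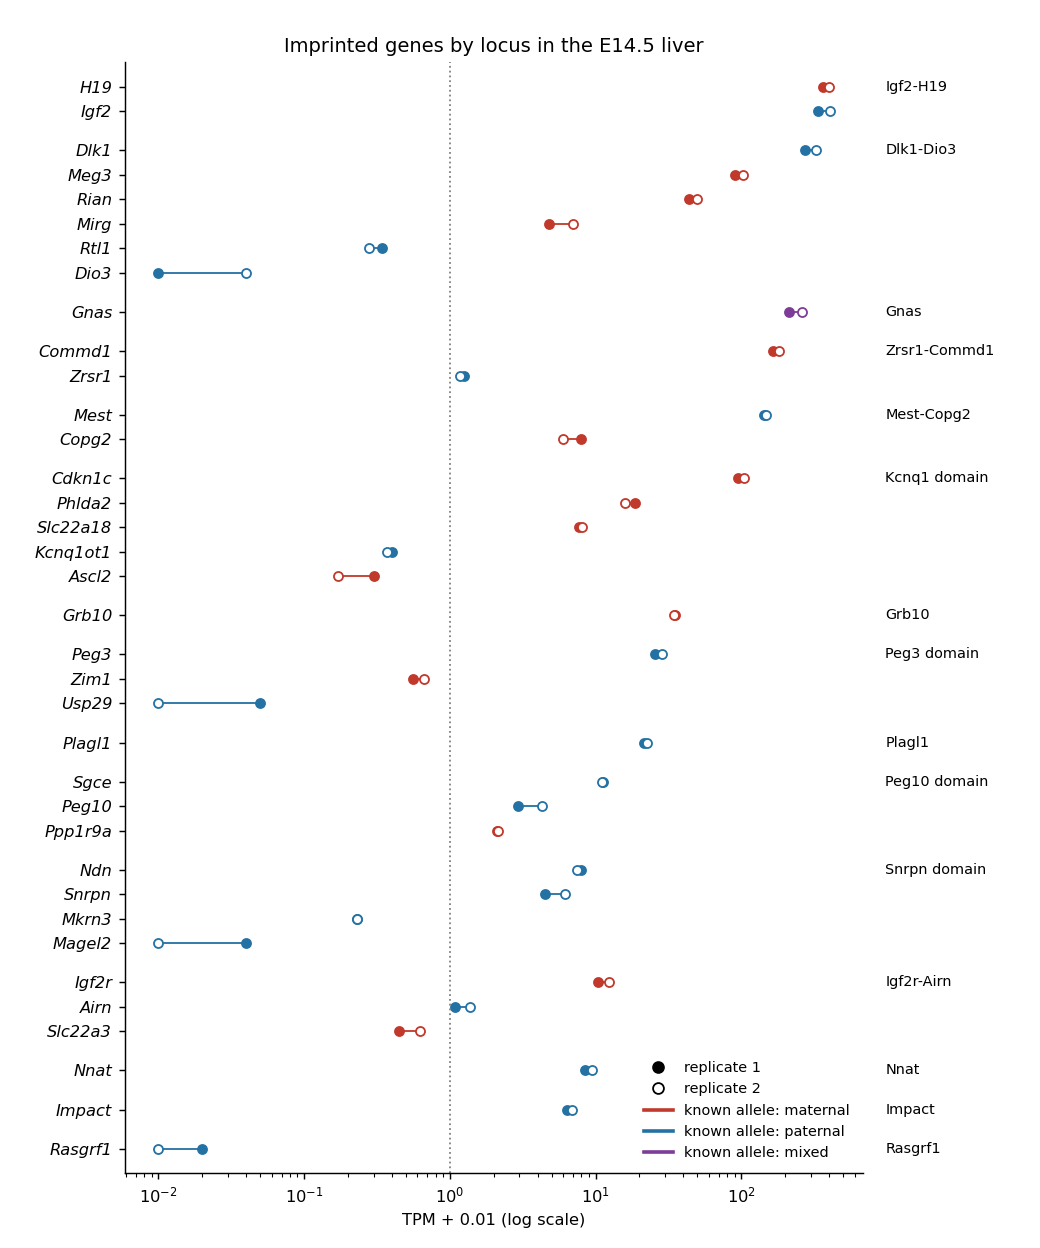
Level of each of the 36 imprinted genes in the livers of replicate 1 (filled) and replicate 2 (open), as TPM + 0.01 on a log axis, grouped by locus in falling order of summed level and coloured by the parental copy known to be read; the dotted line marks 1 TPM. H19, Igf2 and Dlk1 lie furthest to the right, Dio3, Usp29, Magel2 and Rasgrf1 furthest to the left, and the points of Mkrn3 coincide.

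The Igf2-H19 locus on chromosome 7 was the most abundant, with 36.9% of the summed member TPM in replicate 1 and 37.2% in replicate 2. Igf2 (ENSMUSG00000048583.12, chr7:142650766-142666816), which encodes the main fetal insulin-like growth factor and is read from the paternal copy, had 336.9 TPM in replicate 1 and 404.1 in replicate 2. H19 (ENSMUSG00000000031.11, chr7:142575529-142578143), a long noncoding RNA of the maternal copy, had 365.9 TPM in replicate 1 and 400.7 in replicate 2. The log2 ratio of Igf2 over H19 was -0.05 ± 0.09 (SD, n = 2). The genes lay within the spread between the livers, and which was higher differed between them: the fold of Igf2 over H19 was 0.921 in replicate 1 and 1.01 in replicate 2. Igf2 ranked 250 and H19 ranked 244 by mean level among all mouse gene rows.

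Igf2r (ENSMUSG00000023830.9, chr17:12682406-12769664) encodes the receptor that carries IGF2 to the lysosome for breakdown, and is read from the maternal copy. It stood at 10.4 TPM in replicate 1 and 12.4 in replicate 2. Airn (ENSMUSG00000078247.3, chr17:12741311-12860136), the paternal antisense RNA whose transcription silences Igf2r in cis, stood at 1.08 TPM in replicate 1 and 1.37 in replicate 2, from 41 and 39 reads. Igf2r exceeded Airn by 3.23 ± 0.06 on the log2 scale (SD, n = 2). The mean transcript length assigned to Airn was 1011 bases in replicate 1 and 1078 in replicate 2, which is short beside its span. RNA from the rest of the span was not counted for Airn, so its level and this ratio hold for the annotated transcripts only. Slc22a3, an organic cation transporter gene of the same cluster, had 0.44 TPM in replicate 1 and 0.61 in replicate 2, from 63 and 60 reads. Its span overlaps that of Plg, the plasminogen gene, on the opposite strand, and Plg stood at 164.8 and 183.4 TPM. The deposited posterior SD was 0 reads for both genes in each library, so the estimates divided no reads between them.

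In the Kcnq1 domain on chromosome 7, the maternally read genes covered a wide range. Cdkn1c (chr7:143458339-143461050), which encodes the cyclin-dependent kinase inhibitor p57, was the highest with 95.4 TPM in replicate 1 and 104.6 in replicate 2. Phlda2, a small pleckstrin-homology protein known for restraining placental growth, had 18.6 TPM in replicate 1 and 15.8 in replicate 2. Slc22a18, a membrane transporter, had 7.73 and 8.08 TPM. Ascl2, a transcription factor of the trophoblast, had 0.29 TPM in replicate 1 and 0.16 in replicate 2, from 18 and 7 reads, in livers where the trophoblast markers were near or at 0.

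Kcnq1ot1 (ENSMUSG00000101609.1, chr7:143203458-143296549), the paternal long noncoding RNA of this domain, had 0.39 TPM in replicate 1 and 0.36 in replicate 2. Those levels rest on 1389 and 872 reads, because its single annotated transcript is 84395 bases long. The 4 maternally read genes together exceeded Kcnq1ot1 by 8.39 ± 0.14 on the log2 scale of TPM (SD, n = 2), and by a mean of 2.68 on the log2 scale of reads not divided by length.

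The Dlk1-Dio3 locus on chromosome 12 held 21.6% of the summed member TPM in replicate 1 and 22.4% in replicate 2. Its maternally read noncoding RNAs fell in order along the chromosome: Meg3 (chr12:109541001-109571726) had 90.3 TPM in replicate 1 and 102.8 in replicate 2. Rian (chr12:109603940-109661716), which hosts small nucleolar RNAs, had 44.0 and 49.8 TPM. Mirg (chr12:109729764-109749460), which hosts microRNAs, had 4.79 and 7.01 TPM. These values do not overlap between neighbours in that order.

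Dlk1 (chr12:109452823-109463336), a paternally read transmembrane protein related to Notch ligands and a known surface marker of hepatoblasts, had 272.8 TPM in replicate 1 and 324.8 in replicate 2. The other paternally read genes were near the bottom of the range. Rtl1, derived from a retrotransposon, had 0.33 and 0.27 TPM. Dio3, the enzyme that inactivates thyroid hormone, had no read in replicate 1, which allows up to 0.0437 TPM at a limit of 3 reads, and 1 read in replicate 2. The maternal RNAs Meg3, Rian and Mirg summed to 139.1 TPM in replicate 1 and 159.6 in replicate 2, and the paternally read genes Dlk1, Rtl1 and Dio3 to 273.1 and 325.1 TPM. The log2 ratio of the first sum over the second was -1.0 ± 0.04 (SD, n = 2). Both maternal sums lay below both paternal sums.

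At the Peg3 domain on chromosome 7, Peg3 (chr7:6703892-6730431), a paternally read zinc finger protein, had 25.5 TPM in replicate 1 and 28.4 in replicate 2. Its neighbour Usp29, a ubiquitin protease gene that starts next to Peg3 on the opposite strand, had 4 reads in replicate 1 and none in replicate 2, where up to 0.0411 TPM is allowed. The maternally read zinc finger gene Zim1 had 0.55 and 0.66 TPM. Peg3 and Usp29 together exceeded Zim1 by 5.48 ± 0.08 on the log2 scale (SD, n = 2), nearly all of it from Peg3.

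On chromosome 6, Mest (chr6:30723547-30748465), a paternally read gene for a hydrolase-like protein, had 142.5 TPM in replicate 1 and 147.5 in replicate 2. Copg2 (chr6:30747554-30896794), a coatomer subunit read mainly from the maternal copy, overlaps the end of Mest on the opposite strand and had 7.96 and 5.95 TPM. Mest exceeded Copg2 by 4.40 ± 0.33 on the log2 scale (SD, n = 2), the widest spread among the 8 ratios. The Copg2 values lay further apart, relative to their level, than those of Mest.

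The Peg10 domain lies elsewhere on chromosome 6, and its 3 genes summed to 16.32 TPM in replicate 1 and 17.55 in replicate 2. Sgce, which encodes epsilon-sarcoglycan and is read from the paternal copy, had 11.3 TPM in replicate 1 and 11.2 in replicate 2. Peg10, a paternally read gene derived from a retrotransposon, had 2.95 and 4.28 TPM. Ppp1r9a, which encodes the actin-binding protein neurabin and is maternally read in some tissues, had 2.11 and 2.12 TPM. Peg10 and Sgce together exceeded Ppp1r9a by 2.81 ± 0.08 on the log2 scale (SD, n = 2).

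At the Zrsr1-Commd1 locus on chromosome 11, Commd1 (chr11:22896136-22982382), a copper metabolism gene read mainly from the maternal copy in some tissues, had 165.6 TPM in replicate 1 and 181.2 in replicate 2. Zrsr1, a paternally read splicing factor gene that lies inside Commd1 on the opposite strand, had 1.24 and 1.17 TPM. Commd1 exceeded Zrsr1 by 7.17 ± 0.15 on the log2 scale (SD, n = 2). A further row, Gm28048, overlaps both genes and had 5.69 and 7.69 TPM, with a deposited posterior SD of 7.81% and 8.37% of its reads.

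**Figure D2:**
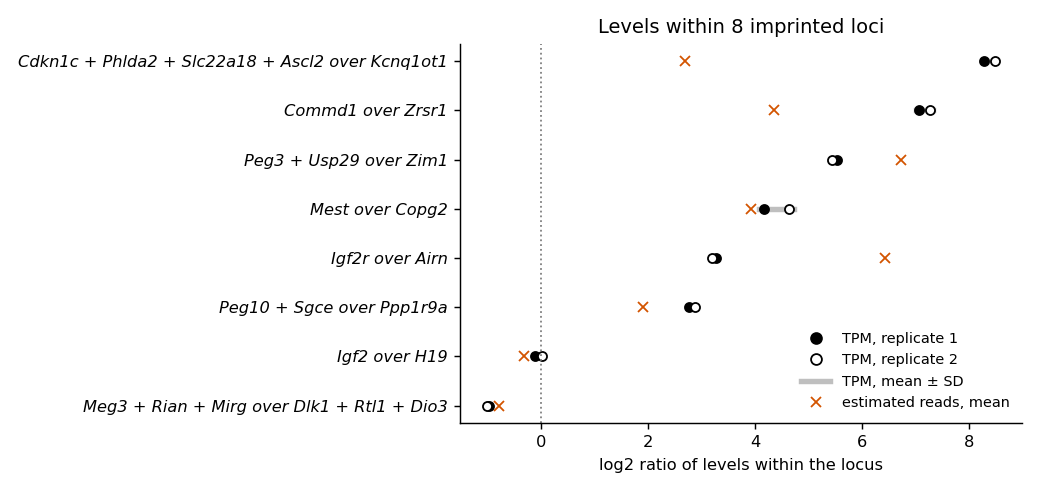
Log2 ratio of the summed level of genes read from one parental copy over that of genes read from the other copy in 8 loci, for replicate 1 (filled) and replicate 2 (open) by TPM, with the mean ± SD (grey bar) and the mean ratio of estimated reads not divided by length (cross). By TPM the ratios run from -1.0 at Dlk1-Dio3 to 8.39 in the Kcnq1 domain, and the crosses lie apart from the TPM values wherever transcript lengths differ.

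The loci with a single listed gene ranged widely. Grb10 (ENSMUSG00000020176.13, chr11:11930508-12038683), a maternally read adaptor that restrains insulin and IGF receptor signalling, had 34.9 TPM in replicate 1 and 34.5 in replicate 2. Plagl1 (chr10:13060504-13131694), a paternally read zinc finger transcription factor, had 21.4 and 22.4 TPM. Nnat, a paternally read membrane proteolipid gene named for its expression in the newborn brain, had 8.52 and 9.5 TPM, while Blcap, the gene that surrounds it on the opposite strand, had 5.78 and 6.57 TPM. Impact, a paternally read inhibitor of the amino acid sensor kinase GCN2, had 6.39 and 6.85 TPM. Rasgrf1, a Ras exchange factor known from the brain, had 2 reads in replicate 1 and none in replicate 2, which allows up to 0.0334 TPM. These 5 genes therefore ran from 34.9 TPM to the lower limit of these libraries.

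The Snrpn domain on chromosome 7, known for its role in the brain, was low in the liver and uneven. Ndn, which encodes the MAGE family protein necdin, had 7.90 TPM in replicate 1 and 7.51 in replicate 2. Snrpn, a core splicing protein gene, had 4.52 and 6.14 TPM. Snurf shares its transcript region and had 3.08 and 3.70 TPM, with a deposited posterior SD of 31.3% and 34.9% of its reads. Mkrn3, a ring finger protein gene, stood at 0.22 TPM in each liver. Magel2, another MAGE family gene, had 5 reads in replicate 1 and none in replicate 2, which allows up to 0.0226 TPM. Of the 4 genes, 2 thus reached 1 TPM in both livers, against 49.2% of all protein-coding rows. The neuronal markers were below 1 TPM, and a link between them and this domain was not tested.

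Gnas (ENSMUSG00000027523.15, chr2:174284320-174346744) encodes the stimulatory G protein subunit and, from upstream starts, the neuroendocrine secretory protein Nesp55 (maternal copy), the extra-large subunit (paternal copy) and the noncoding exon 1A transcripts (paternal copy). As a whole it had 211.6 TPM in replicate 1 and 260.0 in replicate 2. Transcripts were grouped by annotated start, with starts within 1000 bases joined. The start of the stimulatory G protein subunit held 93.5% of Gnas TPM in replicate 1 and 94.0% in replicate 2. Exon 1A transcripts held 4.87% and 4.91%. The Nesp start held 0.88% and 0.58%, and the extra-large start 0.18% and 0.08%. The order of the 4 starts was the same in both livers and by reads, of which the main start held 94.99% and 95.85%.

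Within the main start of Gnas, 3 transcripts shared the level. Gnas-208 held 47.5% of the Gnas TPM in replicate 1 and 45.2% in replicate 2. Gnas-206 held 24.6% and 28.9%, and Gnas-207 held 21.5% and 19.9%. Their starts lie between 174330006 and 174330097, so their separation rests on the estimation of shared reads. On the opposite strand, the noncoding Nespas had 1.14 and 1.51 TPM. The unnamed gene Gm20721, also on the opposite strand, had 26.5 TPM in replicate 1 and 14.1 in replicate 2, with a deposited posterior SD of 11.1% and 28.3% of its reads, against 1.20% and 1.34% for Gnas itself. The row Gm27869, inside Gnas on the same strand, had 2.98 and 4.81 TPM from about 3 reads in each library.

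Igf2 was divided among more starts. The distal start at position 142666816 of chromosome 7 (window 1), used by Igf2-203 alone, held 25.9% of Igf2 TPM in replicate 1 and 28.5% in replicate 2. The starts from 142661205 to 142661870 (around window 2) held 7.34% and 8.28%. The start of Igf2-205 at 142659489 held 6.04% and 6.80%, and those of Igf2-201 and Igf2-202 (window 4) held 15.2% and 13.5%. The remaining 45.4% and 42.9% went to Igf2-208, a processed transcript annotated as beginning 13786 bases downstream of the distal start. Shares agreed between livers within 3 percentage points for each start.

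The picture of Igf2 changed with the unit, since its annotated transcripts run from 376 to 4722 bases. By reads, the distal start held 11.7% in replicate 1 and 12.9% in replicate 2, the start of Igf2-205 held 22.8% and 25.9%, and the start of Igf2-201 and Igf2-202 held 30.7% and 27.5%. Igf2-208 held 31.9% and 30.4% of reads. Igf2-203, at 650 bases, is a short model, and Igf2-205 the longest. The leading start other than that of Igf2-208 was therefore the distal one by TPM and the proximal one by reads. These shares rest on the estimation of reads shared among overlapping transcripts. Reads at the first exons were not counted separately, so the use of each start was not measured directly.

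Grb10 showed the same dependence. Grb10-201, the 5061-base transcript whose start lies in the CpG-dense window 1, held 64.8% of Grb10 TPM in replicate 1 and 71.8% in replicate 2. Grb10-207, a 430-base model that begins further downstream, held 32.8% and 25.5%. By reads Grb10-201 held 94.3% and 95.4%, and Grb10-207 held 3.19% and 2.26%. Grb10-203, which begins at the position of window 2, held 1.5% and 1.12% of TPM. In neurons Grb10 is known to be read from the paternal copy from downstream starts. The neuronal markers were below 1 TPM here. Which cells or which parental copy gave the downstream transcripts was not tested.

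**Figure D3:**
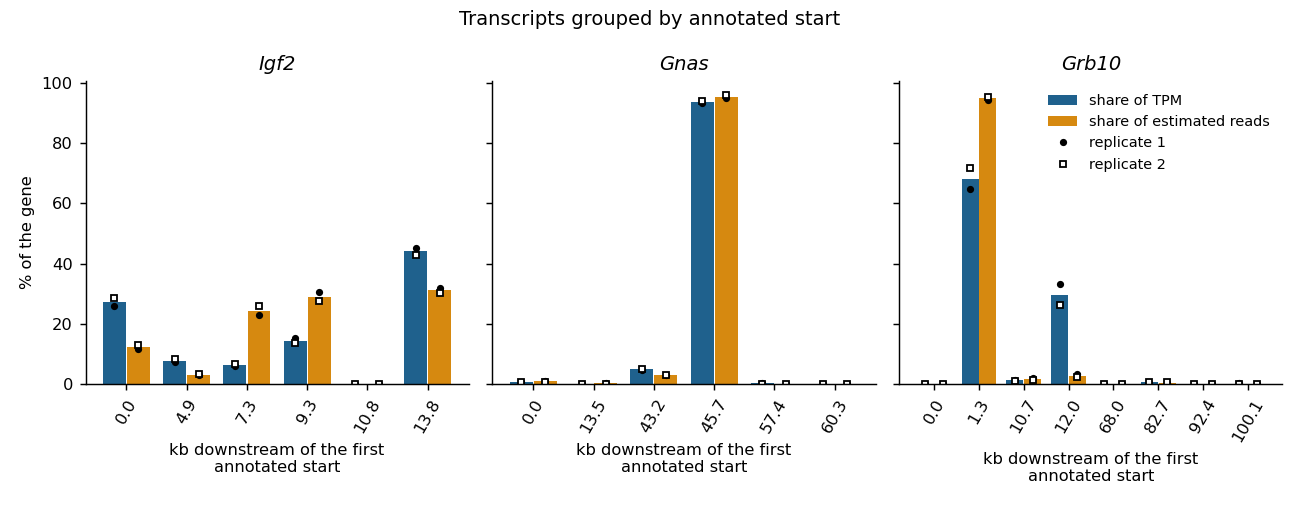
Share of each gene held by groups of transcripts with neighbouring annotated starts, for Igf2, Gnas and Grb10, as % of the TPM of the gene (blue) and % of its estimated reads (orange); bars are means of 2 libraries, circles replicate 1 and squares replicate 2, and the horizontal position gives kilobases from the first annotated start. Gnas is held almost wholly by its start at 45.7 kb in both units, whereas the shares of Igf2 and Grb10 move between the units.

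Over the detected members, the leading transcript was mostly the same in both livers. Of the 22 detected members with 2 or more annotated transcripts, 21 had the same leading transcript in both, and in 14 it held over 50% of the gene in each. Mest-211 held 90.9% of Mest TPM in replicate 1 and 91.2% in replicate 2, Cdkn1c-201 held 84.0% and 81.2% of Cdkn1c, and Plagl1-202 held 74.3% and 72.9% of Plagl1. Meg3-205 held 61.3% and 61.9% of Meg3, and H19-203 held 40.2% and 37.9% of H19. By reads the leader was the same transcript in 19 of the 22, and H19 was among the exceptions, with H19-202 leading.

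The exception between the livers was Peg10. Its 6667-base transcript Peg10-202 held 72.7% of Peg10 TPM in replicate 1 and 39.4% in replicate 2, and a 1477-base transcript (ENSMUST00000175823.3) held 21.6% and 48.0%. The reads of the gene were 662 and 484, a ratio of 1.01 after scaling by total mouse-gene reads (95% interval 0.894 to 1.13). The TPM values of 2.95 and 4.28 differ more than the reads because the mean transcript length assigned to Peg10 was 5460 bases in replicate 1 and 3991 bases in replicate 2.

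None of the 15 members that averaged at least 10 TPM and held 50 or more reads in all differed 2-fold between the livers, against 0.180% of all rows tested in that way. Counting error was then set beside these differences, with an exact Clopper-Pearson 95% interval for the ratio of reads, scaled by total mouse-gene reads. The interval left out 1 for 13 of the 30 members with at least 50 summed reads (43.3%), against 41.0% of all rows, similar shares at this level. With a 99% interval the same 13 members were called, against 29.1% of all rows. Members and all rows were not matched for read depth, on which the width of these intervals depends. Of the 13, 10 were higher and 3 lower in replicate 2. Over all rows called this way, 3750 were higher and 1687 lower in replicate 2. Intervals cover counting error only, and each compares these 2 livers.

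Of the 6 members at 100 TPM or more in both livers, 4 were among those higher in replicate 2, and Mest and Commd1 were not. The ratio of reads of replicate 2 over replicate 1 was 1.17 for Gnas (95% interval 1.14 to 1.20), 1.16 for Dlk1 (1.13 to 1.19), 1.14 for Igf2 (1.11 to 1.16) and 1.07 for H19 (1.05 to 1.09). Larger ratios with wider intervals were those of Mirg, at 1.53 (1.26 to 1.86), and Snrpn, at 1.30 (1.11 to 1.51). Igf2r at 1.11, Meg3 at 1.09, Cdkn1c at 1.05 and Peg3 at 1.04 completed the set. With normalization by trimmed means, the intervals of Cdkn1c and Peg3 held 1.

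Lower in replicate 2 were Phlda2, at a ratio of 0.813 (95% interval 0.703 to 0.939), Copg2, at 0.819 (0.738 to 0.908), and Kcnq1ot1, at 0.865 (0.793 to 0.942). Of the same domain, the maternally read Phlda2 thus lay on the side of Kcnq1ot1, and the maternally read Cdkn1c above 1. For Grb10, at 1.04 (0.992 to 1.08), and Plagl1, at 0.992 (0.943 to 1.04), no difference was detectable at this depth. Mest stood at 0.992 (0.966 to 1.02), but at 0.955 (0.931 to 0.980) with normalization by trimmed means, so its call depends on the scaling. The median log2 ratio of TPM over the 26 detected members was 0.13, against 0.09 over all detected rows. Between the livers, the summed hepatoblast markers were 12313 TPM in replicate 1 and 13129 in replicate 2, and the summed erythroid markers 142289 and 136982 TPM; their part in these differences was not tested.

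**Figure D4:**
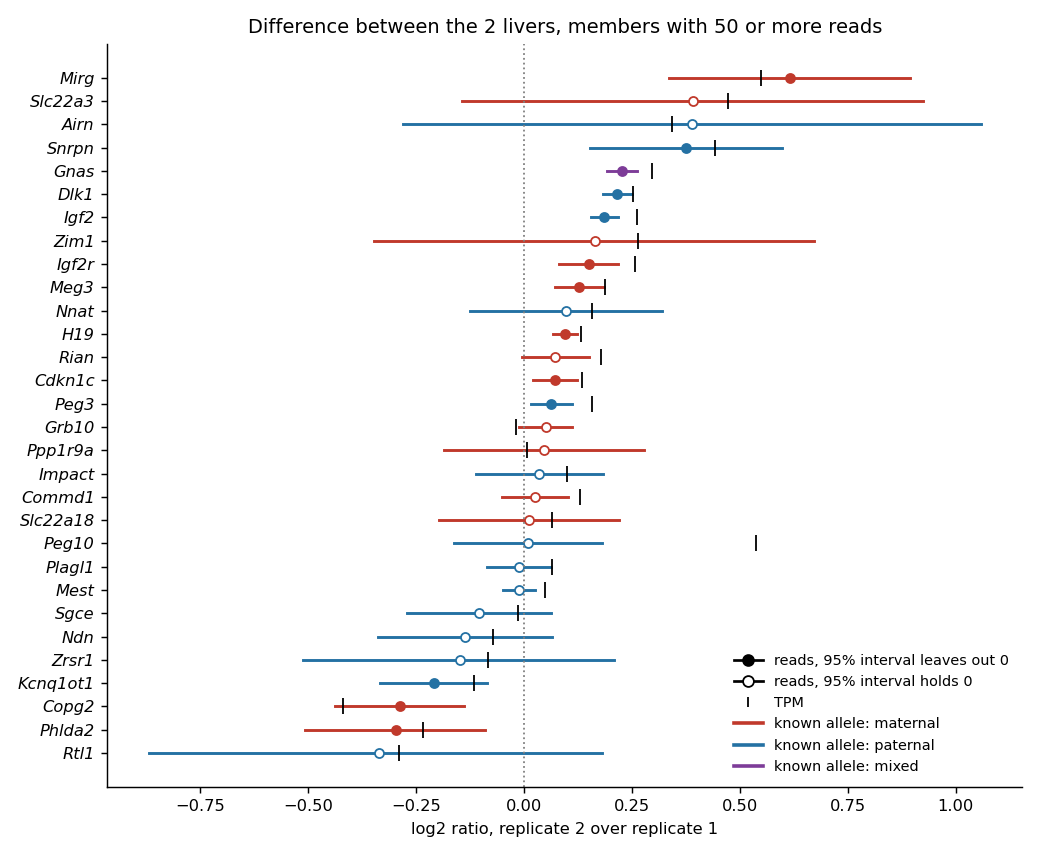
Log2 ratio of replicate 2 over replicate 1 for the 30 members with at least 50 summed reads, by reads scaled to total mouse-gene reads (circle, with its exact 95% interval, filled where the interval leaves out 0) and by TPM (tick), coloured by the parental copy known to be read. The filled circles number 13, with 10 to the right of 0 and 3 to the left, and the tick of Peg10 lies far from its circle.

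Several members share their span with another gene. An annotated row at 1 TPM or more overlapped 10 of the 36 members, and for 9 of these on the opposite strand: Igf2r and Airn, Mest and Copg2, and Zrsr1 and Commd1 overlap each other, and Gnas, Nnat and Slc22a3 overlap other genes. The deposited posterior SD, which is above 0 where reads were divided between rows, was 0 in both libraries for Igf2r, Airn, Nnat and Slc22a3. Among Mest, Copg2, Zrsr1, Commd1 and Gnas it was highest for Copg2, at 1.31% and 1.64% of its reads. Among the overlapping rows at 1 TPM or more that are no members, larger values were those of Gm20721, Gm27869, Gm28048, Nespas and Snurf. Within the members, 31 microRNA and 13 small nucleolar RNA rows are annotated, in 9 host or neighbouring genes including H19, Rian, Mirg and Rtl1. All 44 were at 0 reads in both of these libraries of RNA above 200 nucleotides. Effective lengths lie 99 bases below the lengths, so rows no longer than that could receive no reads whatever the library held. The hosts were thus measured and the small RNAs were not.

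CpG content at the start, which the selection did not use, was higher in the median member window than in the median window of all genes, with a wide range among members. RefSeq windows of 300 bases matched 30 of the 36 members, in 45 windows, some of which overlap. The members named without a window are Cdkn1c, H19, Impact, Peg10, Rtl1 and Sgce. The median ratio of observed over expected CpG was 0.602 in the member windows, against 0.384 in all 32851 windows. It was at least 0.6 in 51.1% of the member windows, against 35.8% of all windows, and the median GC content was 57.3% against 52.7%. Taking the window richest in CpG of each gene, 60% of members reached 0.6, against 38.4% of all genes.

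Members differed among themselves in this measure. Grb10 window 1 and a window of Ppp1r9a had the highest observed over expected CpG of the member windows, each at 0.973, and Igf2r stood at 0.910. Rian, with no CpG in its window, was the lowest, Slc22a18 had 0.0919 and Airn 0.192. Among the Igf2 windows the third reached 0.896 and the first 0.0999. The letters TGCCGC, read on both strands, are the core of the motif of ZFP57, a zinc finger protein that keeps imprinting marks methylated. They were found in 24.4% of the member windows, against 11.6% of all windows, among them Igf2 window 2, Grb10 window 1 and both overlapping windows of Mest. These letters hold a CpG, and the median number of CpG was 14 in the member windows against 7 in all windows. The comparison did not allow for that difference. The letters TATAAA, read on both strands, were found in 22.2% of the member windows, against 13.6% of all windows. Such a match is a description of the sequence, and methylation and binding were not measured.

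**Figure D5:**
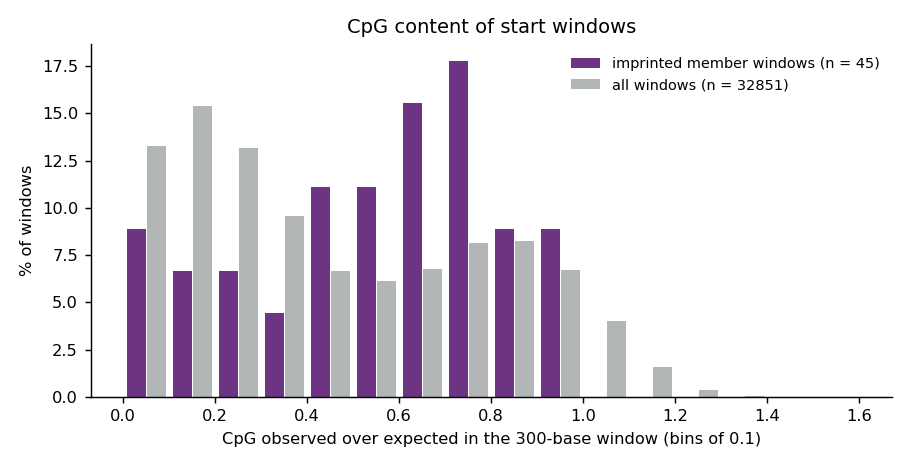
Distribution of observed over expected CpG in 300-base start windows, as % of the 45 windows of imprinted members (purple) and % of all 32851 RefSeq windows (grey), in bins of 0.1. The member windows peak between 0.6 and 0.8, and the full set has its highest bins below 0.3.

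Other genes known to be imprinted, from a list of 44 symbols outside the members, were present at similar levels. Some of them are known to be imprinted only in certain tissues, and whether they are imprinted in the liver was not measured. Of the 41 with a row, 28 reached 1 TPM in both livers, against 26.2% of all mouse gene rows and 49.2% of protein-coding rows. The median over the 41 stood at 5.66 TPM. The highest were Bcl2l1, an inhibitor of apoptosis needed by erythroid cells, with 140.1 TPM in replicate 1 and 151.9 in replicate 2, and Cd81, a tetraspanin, with 97.8 and 106.1 TPM. Tspan32, a tetraspanin of blood cells, had 63.9 and 71.9 TPM, Dhcr7, an enzyme of cholesterol synthesis, 46.4 and 50.04 TPM, and Slc38a4, an amino acid transporter, 41.8 and 44.9 TPM. Slc22a2, Calcr and Kcnk9 had no reads in either liver.

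The factors that maintain imprints were mostly expressed. Of 16 on the list, which was chosen by hand, 12 reached 1 TPM in both livers, against 49.2% of all protein-coding rows. Trim28, the corepressor recruited by ZFP57, had 78.3 TPM in replicate 1 and 94.6 in replicate 2. Uhrf1, which brings DNMT1 to replicating DNA, had 62.2 and 74.7 TPM, and Ctcf, the insulator protein that binds the H19 control region, 32.9 and 39.9 TPM. Dnmt1, the maintenance methyltransferase, had 23.1 and 28.2 TPM, and Smchd1, a chromatin protein that helps silence several imprinted clusters, 19.8 and 23.6 TPM. Zfp57 itself had 1.74 and 1.91 TPM. It falls outside the rule by which genes were chosen for naming and was added after its values were seen. Dnmt3l, Dppa3 and Nlrp2, known from germ cells and the early embryo, had no reads.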

How the data were processed

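Total RNA of 2 samples of mouse liver at embryonic day 14.5 was analysed from the gene and transcript tables deposited for each library. Expected counts, the estimated reads per row, were deposited by the authors without normalization and need not be whole. TPM and FPKM were deposited beside them, over all rows including spike-ins, and the percent of a gene's TPM held by each transcript was deposited in the transcript tables, per the file headers. Posterior estimates of TPM, FPKM and count were deposited too. Per the README deposited with each library, the build is mm10 and the annotation GENCODE M4. The aligner and counting program were not given in the sources used here. Whether counting used the strand is not stated. Effective lengths lie 99 bases below the lengths. Reads are not independent molecules after amplification.

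Symbols and positions were taken by identifier from GENCODE M21 on the same build, and 42462 of 43346 mouse rows matched. The start groups join starts within 1000 bases, and the counted transcripts of Igf2, Gnas and Grb10 all had their M21 lengths. Detection means 1 TPM in both livers. Differences of 2-fold used log2 of TPM plus 1, which understates those of low genes. Intervals used rounded counts; rows at 0 are given the limit of 3 reads. The labels name 2 biological replicates, and whether each is a single liver or a pool is not settled. The libraries differed by a chi-square of 12.1 per degree of freedom over 13264 genes, so their counts are not copies of each other. That value cannot tell separate livers from repeated libraries of the same RNA. The members and lists were chosen with earlier results of these data known, and named are all 36 members, the 5 highest and the lowest of the other lists, and rows at 1 TPM or more that overlap a member. Computations used pandas 2.3.3, numpy 2.4.6 and scipy 1.17.1 under Python 3.11.15, and matplotlib 3.10.9 for plots. The edgeR package (4.0.16, in R 4.3.3) gave the factors of trimmed-mean normalization only.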

Additional observations from a re-analysis of the deposited data

How the results depend on the processing

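The call of members at 1 TPM gave 26, and between 20 (at 5 TPM) and 31 (at 10 reads) under the other limits, FPKM and either library alone. The share of all rows was not computed under these alternatives. The count of 2-fold differences was 0 under each pseudocount, filter and unit tried. Differences beyond counting error numbered 12 of the 30 members tested with factors of trimmed-mean normalization, against 38.9% of all rows. Of these, 11 were among the 13 of the main result. Cdkn1c and Peg3 left and Mest, lower in replicate 2, joined. With a 99% interval the number was 13, against 29.1% of all rows. Without globin genes in the total, the median member level was 13.4 TPM and the member share of mouse TPM 0.370%; by expected counts the share was 0.366%. With expected counts not divided by length, the mean log2 ratios were -0.32 for Igf2 over H19, -0.80 for the maternal over the paternal genes at Dlk1-Dio3, 6.42 for Igf2r over Airn, 2.68 in the Kcnq1 domain, 6.74 in the Peg3 domain, 3.92 for Mest over Copg2, 1.89 in the Peg10 domain and 4.36 for Commd1 over Zrsr1; lengths enter these by construction. With posterior mean TPM, Igf2r over Airn was 2.94 and Peg10 with Sgce over Ppp1r9a 2.65. By expected counts, Igf2-208 held 31.1% of Igf2 and Grb10-201 94.9% of Grb10. Start shares by expected counts were an alternative chosen after seeing the data. No alternative reversed a ratio that exceeded the spread between the livers. Either library alone lies within that spread by construction, and scaling without globin genes cancels in the ratios within a locus, so these say nothing about stability. No paired analysis was possible because there is 1 group. Depth limits the statements on genes with few reads, such as Airn, Ascl2, Dio3, Usp29, Magel2 and Rasgrf1. The 2 samples, which may be pools, give little information on the spread between embryos.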
